A study of Mus musculus with 7 samples.

Results

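The 31 genes described here act at the passage from G1 into S phase and at the replication fork. They were taken by name from a list whose rule uses no measured value, though the list was drawn up with earlier results of these data known. All 31 were found among the 28786 genes of the count table by their Ensembl identifiers. Transcripts were counted in haematopoietic stem cells (HSCs) sorted from the bone marrow of mice. The control group comes from normal mice, and the MC38 group from C57BL/6J mice carrying MC38, a mouse colon carcinoma line. The marrow came from mice 6 to 8 weeks old, and each library was made from 1500 sorted cells. The strain is written on the MC38 samples only, and the series design names normal mice beside them. The labels do not say where the tumour grew or for how long, which surface markers defined the sort, or whether animals were pooled. Of 3 control libraries and 4 MC38 libraries, 2 controls and all 4 MC38 libraries were compared. Separate animals are not named in the labels, so p-values here reflect the spread from library to library, part or all of which may be technical.

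A cell that is to divide first licenses its replication origins. The origin recognition complex, with Cdc6 and Cdt1, loads the ring of Mcm2 to Mcm7 onto DNA in G1. Cyclin E with Cdk2 and the E2F factors then open S phase, Cdc45 and the GINS complex turn the loaded ring into an active helicase, and polymerase alpha with primase starts each new strand. Pcna, the sliding clamp, holds the polymerases on the DNA, and ribonucleotide reductase, thymidylate synthase and dUTPase supply and clean up the nucleotides. Most adult HSCs are quiescent, and transcripts of these genes are low in quiescent cells and high in cycling progenitors.

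Many genes of G1/S are known targets of E2F factors, so the promoters of the list were searched for the E2F letters. The forms searched were TTTCCCGC, TTTCGCGC, TTTGCCGC and TTTGGCGC on both strands, in windows of 300 bases that start 250 bases before a RefSeq gene start (GRCm38.p6). Of the 26 members with a window, 11 (42.3%) held at least 1 match at any of their starts, against 2.61% of the 27025 genes in the same promoter set. The other 15 members held no match to the E2F letters, Dut, Fen1, Ung and Pcna among them. The shorter letters CCAAT, bound by the factor NF-Y and also searched on both strands, were in the windows of 15 members (57.7%), against 41.1% of those genes. The stretches below are examples from 3 of the 11, with matches that lie before the annotated gene and overlap no annotated exon. They are printed 5′ to 3′ on the strand of the gene, with the E2F letters in capitals, and are shown because they carry the letters found in these promoters.
Mcm6 (chr1:128359715-128359845, minus strand): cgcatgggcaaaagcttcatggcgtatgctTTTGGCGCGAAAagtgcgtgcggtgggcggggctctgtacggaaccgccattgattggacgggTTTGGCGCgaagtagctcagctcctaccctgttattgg
Mcm5 (chr8:75109326-75109397, plus strand): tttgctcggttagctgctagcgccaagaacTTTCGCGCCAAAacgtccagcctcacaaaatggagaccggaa
Pola1 (chrX:93632256-93632323, minus strand): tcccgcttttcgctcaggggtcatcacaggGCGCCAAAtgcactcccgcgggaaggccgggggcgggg
Mcm6 held 3 matches, 2 of which overlap each other and begin 110 and 106 bases before the start, and the matches of Mcm5 overlap as well. In Pola1 the letters lie on the other strand, so their reverse complement is seen. A match describes the sequence only, and binding was not measured here.

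All 4 MC38 libraries were deeper than both controls. The controls held 12131546 and 12306066 counts and the MC38 libraries 13368238 to 17657037, and single members had between 70 and 6551 counts in a library. The third control column was not used as a library. Its value was a nearly constant share of the sum of the other controls (median 0.353 over 9692 genes), with a spread 0.393 times that of random subsampling, while no triple of the other columns came below 4.51. For the 31 members that share ran from 0.348 for Ccne1 to 0.385 for Ccne2. The 12 stem and progenitor markers, Kit, Procr, Slamf1, Mecom and Hlf among them, had counts in every library. They summed to 1537 and 1709 CPM in the controls and 1527 to 1784 in MC38, with 0 called. The sum hides differences between genes. Ly6a was at 94.3 and 120.4 CPM in the controls and at 158.4 to 176.6 CPM in MC38. Procr, Fgd5 and Flt3 were also above both controls in every MC38 library, and the other markers overlapped. CPM stands here for counts scaled to a common library total (CPM after TMM).

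No replication gene of the list passed the test between MC38 and control. Of 31 members, 0 were higher and 0 lower (edgeR quasi-likelihood test, Benjamini-Hochberg adjustment over 14226 genes, threshold 0.05), where 1.61% of all tested genes were called, 1.04% higher and 0.569% lower. DESeq2, run as another tool, called 2 members lower, Mcm6 and Dut, beside 2.79% of its 14212 genes. At an unadjusted edgeR p under 0.05 there were 5 members (16.1%), all lower, beside 17.5% of all genes, so that share is near the background. Most estimates nevertheless lay on the lower side. The log2 fold change was below 0 for 26 members (83.9%) and for 49.1% of all genes, and its median was -0.22 over the members and 0.01 over all genes. In 10 members (32.3%) all 4 MC38 libraries lay below both controls, a pattern found in 15.0% of all genes. No member had all MC38 libraries above both controls, a pattern found in 14.0% of all genes. The members are transcribed in the same cells and are not independent of each other, so these shares describe the list and carry no test. In bulk libraries, fewer cycling cells and less RNA per cell cannot be told apart.

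**Figure D1:**
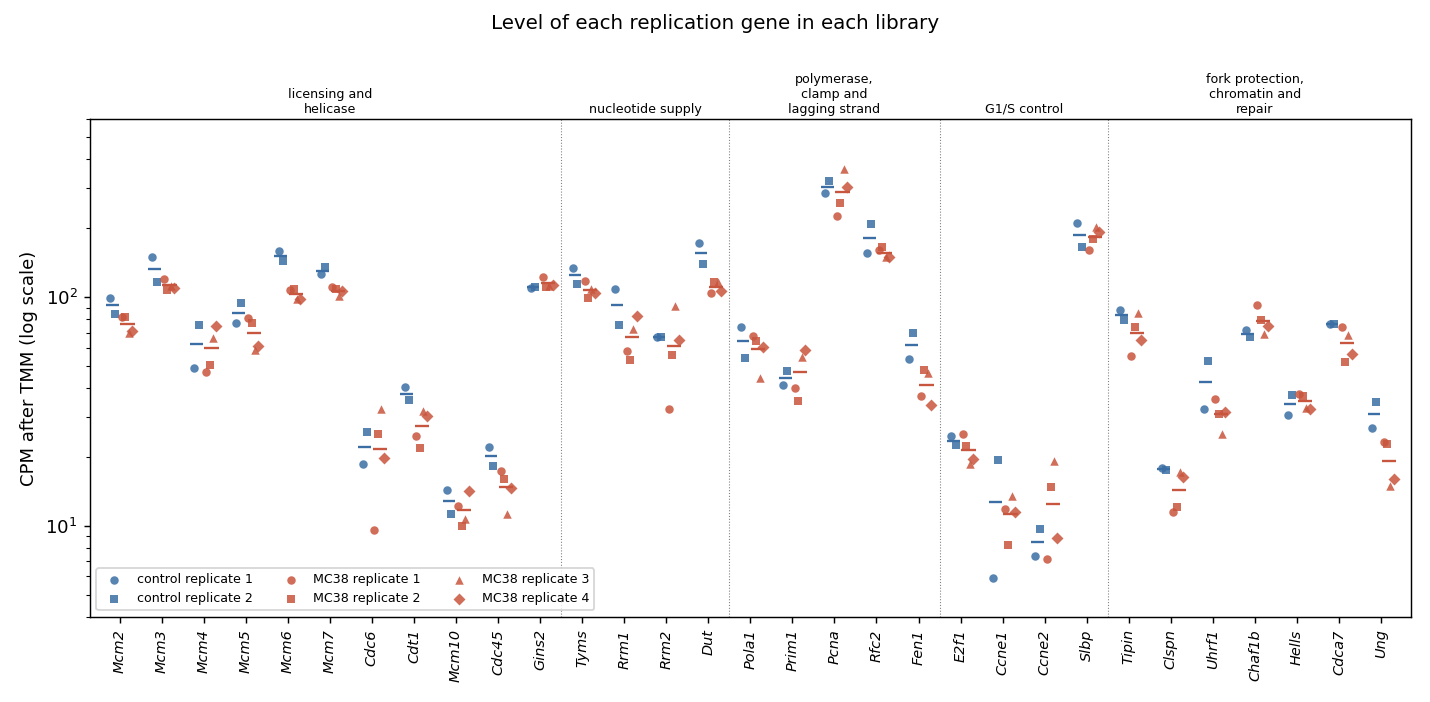
Level of each of the 31 genes in each library, as CPM after TMM on a log axis, grouped by role. Each symbol is a library (blue, control, n = 2; red, MC38, n = 4) and each short line a group mean. The MC38 values of Mcm6, Mcm7 and Dut lie close together below both controls, while those of Cdc6, Rrm2 and Ccne2 spread widely.

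**Figure D2:**
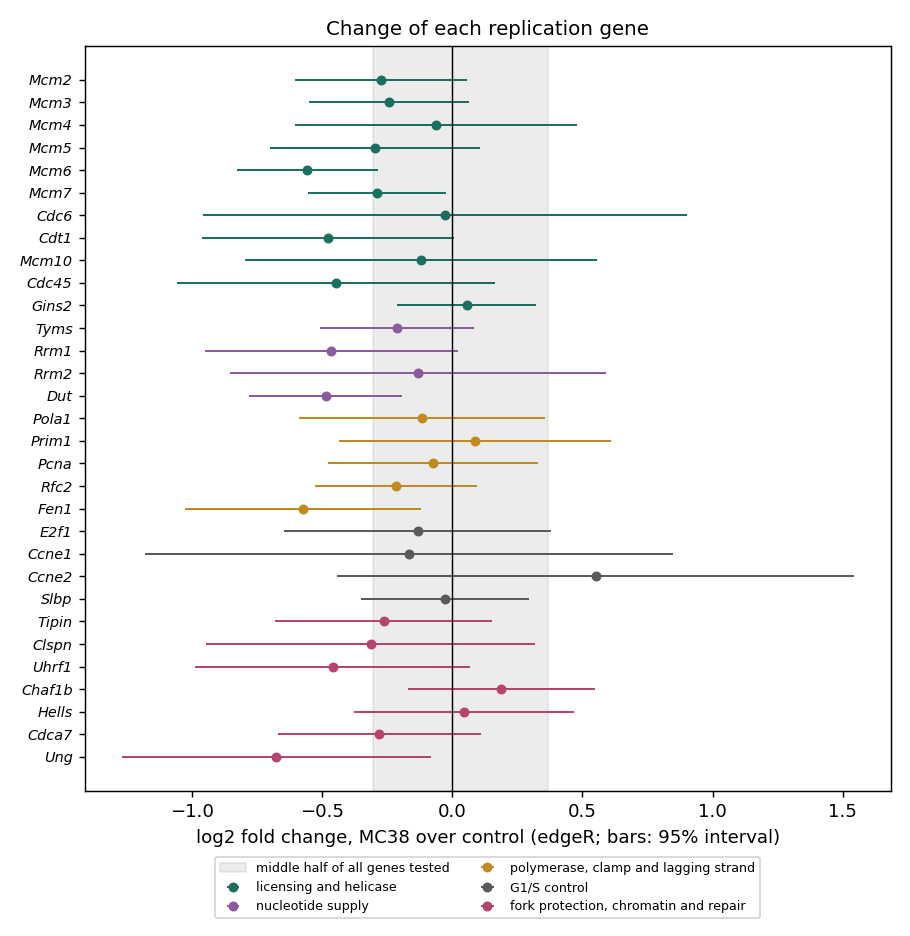
Log2 fold change of MC38 over control for each gene from edgeR, with its 95% interval, coloured by role. The grey band holds the middle 50% of all tested genes. The intervals of Mcm6, Mcm7, Dut, Fen1 and Ung lie wholly below 0, and no adjusted p was below 0.05.

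The licensing and helicase genes were the role with the steadiest difference. Their 11 transcripts summed to 866.1 and 852.1 CPM in the controls and to 735.3, 718.3, 704.2 and 713.9 CPM in the MC38 libraries. Every MC38 library was below both controls, and the mean was 0.836 times that of the controls. Of the 11 members, 10 had a log2 fold change below 0, 0 were called, and the median was -0.28. The 6 subunits Mcm2 to Mcm7, which form the ring-shaped helicase core, had summed levels of 655.5 ± 7.49 CPM (control) and 527.6 ± 18.1 CPM (MC38; SD, n = 2 and 4).

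Mcm6 had the smallest p of the list. Its gene (ENSMUSG00000026355, mm10 chromosome 1, 128331590 to 128359664, minus strand) is the one with the 3 E2F matches printed above. It was at 159.3 and 144.3 CPM in the controls and at 107.3, 108.8, 98.2 and 98.2 CPM in MC38 libraries 1 to 4. The groups did not overlap, and the 4 MC38 values differed by at most 1.11-fold. The log2 fold change was -0.56 (SE 0.12, 95% interval -0.83 to -0.29, edgeR adjusted p = 0.055), which is 0.679 times the control level. An exact permutation test gave p = 0.0667, two-sided, the smallest that 2 against 4 libraries allow. The edgeR value lies just above the threshold and crossed it in 4 of 15 alternatives. Among these, the fit with all 7 columns counts the third control as independent, which it is not. The adjusted p was 0.00262 with DESeq2, 0.00637 with all 7 columns, 0.0409 with no filter on low counts and 0.0465 without MC38 replicate 1 (edgeR for the last 3). Among fits with both controls the highest edgeR adjusted p was 0.182, without MC38 replicate 4. The log2 fold change was -0.48 without control replicate 1 and -0.63 without control replicate 2. The share of all genes called lower was 4.81% with all 7 columns, 0.941% with no filter and 1.31% without MC38 replicate 1.

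The other ring subunits lay on the same side by less. Mcm7 was at 125.9 and 135.5 CPM in control libraries and at 111.0, 108.7, 101.2 and 106.5 CPM in MC38, again without overlap. Its log2 fold change was -0.29 (SE 0.12, edgeR adjusted p = 0.245). Mcm2 was at 99.6 and 84.5 CPM against 81.7, 81.6, 69.4 and 71.4 CPM, with the nearest libraries of the groups close together (edgeR adjusted p = 0.372). Mcm3 (-0.24) and Mcm5 (-0.30) had similar log2 fold changes, but their groups overlapped. Mcm4 differed most between libraries of one group: 49.0 and 75.6 CPM in control, and 47.2, 50.4, 66.1 and 74.9 CPM in MC38. Its log2 fold change was -0.06 (95% interval -0.60 to 0.48), and its sign turned without control replicate 2 and without MC38 replicate 1 or 2.

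**Figure D3:**
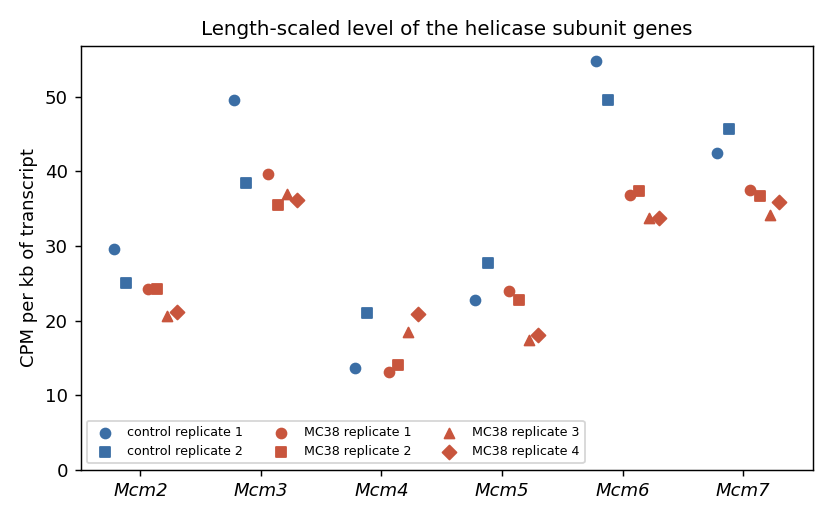
CPM per kilobase of transcript for the 6 ring subunit genes in each library (blue, control; red, MC38). Mcm6 and Mcm3 hold the highest control values, and the groups of Mcm4 cover nearly the same range.

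Among the loaders, Cdt1, which brings the ring to the origin, was at 40.3 and 35.4 CPM in control libraries and at 24.7, 21.9, 31.9 and 30.3 CPM in MC38. The groups did not overlap (log2 fold change -0.48, SE 0.22, edgeR adjusted p = 0.292). Cdc6, the ATPase that works with Cdt1, was at 18.7 and 25.8 CPM against 9.55, 25.2, 32.5 and 19.8 CPM. Its MC38 libraries reached below and above both controls and differed 3.40-fold, the widest range in the list. The interval of its log2 fold change ran from -0.96 to 0.90, which is 0.514 to 1.87 times the control level. Of the activating factors, Cdc45 was at 22.2 and 18.2 CPM against 17.4, 16.1, 11.3 and 14.6 CPM, below both controls throughout (edgeR adjusted p = 0.436). Mcm10, which helps to start the helicase, had a log2 fold change of -0.12, and Gins2, a GINS subunit, one of 0.05 (95% interval -0.21 to 0.32). Gins2 was the only licensing and helicase gene with an estimate above 0.

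The nucleotide supply genes all had estimates below 0, with a median log2 fold change of -0.34 over 4 members and 0 called. Dut, the dUTPase that keeps uracil out of DNA (ENSMUSG00000027203, mm10 chromosome 2, 125247190 to 125258608, plus strand), was at 171.8 and 139.0 CPM in the controls. The MC38 libraries had 104.6, 116.3, 116.2 and 106.5 CPM, all below both controls and within 1.11-fold of each other. Its log2 fold change was -0.49 (SE 0.13, 95% interval -0.78 to -0.19, edgeR adjusted p = 0.1005). It passed with DESeq2 (adjusted p = 0.028) and in edgeR with all 7 columns (adjusted p = 0.0177). The latter fit counts the third control as independent, which it is not.

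Ribonucleotide reductase turns ribonucleotides into deoxyribonucleotides, and its subunit genes varied in different ways. Rrm1, the large subunit, was at 108.9 and 75.4 CPM in control libraries and at 58.1, 53.0, 72.9 and 82.8 CPM in MC38. MC38 replicate 4 exceeded control replicate 2, so the groups overlapped (log2 fold change -0.47, SE 0.22, edgeR adjusted p = 0.307). Rrm2, the small subunit, whose level follows S phase, was at 66.9 and 67.2 CPM in the controls and at 32.6, 55.6, 91.4 and 65.0 CPM in MC38 libraries. The controls were nearly equal, while the MC38 libraries differed 2.81-fold around them. Tyms, thymidylate synthase, was at 134.3 and 114.7 CPM against 99.2 to 117.3 CPM, with a log2 fold change of -0.21 (edgeR adjusted p = 0.446). The 4 genes summed to 439.1 ± 60.5 and 346.2 ± 34.9 CPM (SD, n = 2 and 4). That gap rested on 1 pair of libraries: MC38 replicate 3 (389.5 CPM) was just under control replicate 2 (396.3 CPM), and the groups overlapped with RLE size factors or with library totals alone.

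The polymerase, clamp and lagging strand genes showed less. Their summed level was 608.6 and 702.1 CPM in control and 531.6 to 660.5 CPM in MC38, with overlap, and 0 of 5 were called. Fen1, the flap nuclease that trims Okazaki fragments (ENSMUSG00000024742, mm10 chromosome 19, 10199132 to 10204169, minus strand), stood apart from the other 4. It was at 53.6 and 69.6 CPM in control libraries and at 36.9, 47.9, 46.8 and 33.7 CPM in MC38, without overlap. Its log2 fold change was -0.57 (SE 0.20, 95% interval -1.03 to -0.12, edgeR adjusted p = 0.188). Pcna was at 284.0 and 322.4 CPM against 225.8, 258.8, 364.5 and 301.9 CPM, with MC38 libraries on both sides of the controls (log2 fold change -0.08, edgeR adjusted p = 0.88). Rfc2, of the clamp loader, was at 155.7 and 208.7 CPM against 149.4 to 165.6 CPM. Of the genes that start a strand, Pola1 had a log2 fold change of -0.12 and Prim1 one of 0.09, with intervals from -0.59 to 0.36 and from -0.44 to 0.61.

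The genes of G1/S control lay closest to their control level as a sum. Most of that sum was Slbp, with means of 187.7 CPM in control and 184.1 CPM in MC38. Together the 4 had summed levels of 232.5 ± 22.5 CPM (control) and 229.3 ± 20.98 CPM (MC38; SD, n = 2 and 4), and none had groups that did not overlap. E2f1, the E2F factor that drives S phase genes, was at 24.7 and 22.5 CPM against 25.2, 22.4, 18.7 and 19.7 CPM, with a log2 fold change of -0.13 (edgeR adjusted p = 0.823). The cyclin E genes were the least certain of the list. Ccne1 was at 5.88 and 19.4 CPM in the controls, which differed 3.30-fold, and at 8.21 to 13.5 CPM in MC38. Without control replicate 2 its log2 fold change turned to 0.94 (edgeR adjusted p = 0.337). Ccne2 was at 7.39 and 9.66 CPM against 7.13, 14.7, 19.2 and 8.88 CPM, a log2 fold change of 0.55 (95% interval -0.44 to 1.54, edgeR adjusted p = 0.573), and was the member with the highest estimate. Slbp, which binds the stem-loop of histone mRNAs, was at 210.4 and 165.1 CPM against 160.1 to 203.5 CPM (log2 fold change -0.03).

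**Figure D4:**
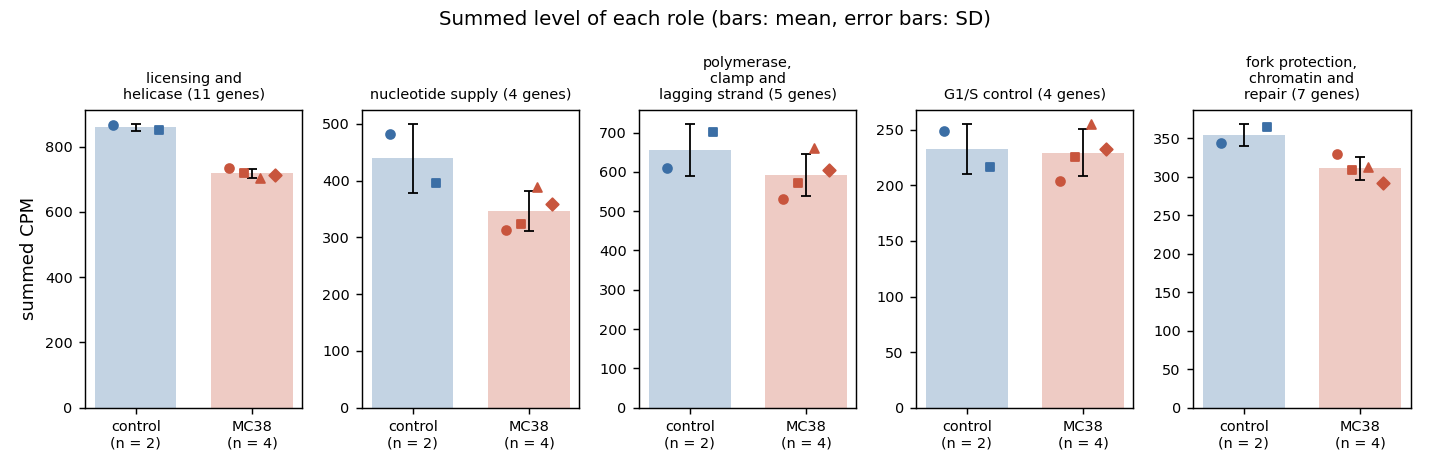
Summed CPM of the genes of each role in each library. Bars are means, error bars SD, and each symbol is a library. The licensing and helicase, the nucleotide supply and the fork protection, chromatin and repair sums lie lower in every MC38 library than in both controls, and the other sums overlap.

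Genes of fork protection, chromatin and repair were mixed. Ung, the glycosylase that removes uracil from DNA (ENSMUSG00000029591, mm10 chromosome 5, 114130386 to 114139323, plus strand), had the lowest estimate of the 31 members. It was at 26.7 and 34.8 CPM in control libraries and at 23.2, 22.8, 14.9 and 16.0 CPM in MC38, all below both controls (log2 fold change -0.68, SE 0.27, 95% interval -1.27 to -0.08, edgeR adjusted p = 0.231). Clspn and Tipin encode fork proteins of the checkpoint and of the Timeless complex. Clspn was at 18.0 and 17.6 CPM against 11.5 to 17.1 CPM, just below both controls, and Tipin at 88.2 and 79.6 CPM against 55.1 to 85.5 CPM, with overlap. Uhrf1, which brings Dnmt1 to newly copied DNA, was at 32.3 and 52.4 CPM against 25.3 to 35.8 CPM, with a log2 fold change of -0.46 (edgeR adjusted p = 0.355). Cdca7 and Hells form a chromatin remodeller. Cdca7 was at 76.5 and 75.9 CPM against 52.2 to 73.7 CPM, and Hells at 30.6 and 37.3 CPM against 32.5 to 37.9 CPM. Chaf1b, of the histone chaperone that follows Pcna, was at 71.9 and 66.6 CPM against 92.3, 79.8, 69.2 and 74.5 CPM, with a log2 fold change of 0.19 (edgeR adjusted p = 0.597). The 7 genes summed to 344.2 and 364.2 CPM in control and to 292.1 to 329.5 CPM in MC38.

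Variation among the MC38 libraries differed from gene to gene. The highest MC38 library was over 1.5 times the lowest in 12 members, and the higher control over 1.5 times the lower in 3. Cdc6, Rrm2, Ccne2 and Pcna all had their lowest MC38 value in replicate 1 and their highest in replicate 3, whereas Mcm7, Mcm6, Gins2, Rfc2 and Dut stayed within 1.11-fold. Replicate 3 gave the highest MC38 value of 9 members and the lowest of 10, so it was not shifted one way. The share of counts from mitochondrial transcripts also differed between these libraries, at 2.01, 2.31, 3.14 and 2.88% in MC38 libraries 1 to 4 and 1.71 and 1.75% in the controls. The part of this difference in the values above was not tested.

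Per kilobase of the longest principal transcript, the control levels of the members spanned a wide range. Pcna was the highest at 199.7 ± 17.9 CPM per kb, followed by Slbp at 98.5 ± 16.8 and Dut at 79.7 ± 11.9 (SD, n = 2). Slbp and Dut overlapped within their spread. Mcm6 came next at 52.2 ± 3.65 CPM per kb, and Tipin (45.6 ± 3.32), Mcm7 (44.1 ± 2.29) and Mcm3 (44.0 ± 7.85) did not differ from each other beyond their spread. The ring subunits were not at equal levels in control libraries, with Mcm2 at 27.3 ± 3.15, Mcm5 at 25.3 ± 3.53 and Mcm4 at 17.4 ± 5.25 CPM per kb. In MC38 libraries Mcm3 (37.1 ± 1.84), Mcm7 (36.1 ± 1.41) and Mcm6 (35.4 ± 1.97) lay within a common spread (SD, n = 4). Mcm10 (2.63 ± 0.46), Ccne2 (2.84 ± 0.53) and Clspn (3.54 ± 0.06) were the lowest in control. These levels depend on the annotated length, and the 2 controls limit how well neighbours in the order can be told apart.

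The rest of the replication machinery was read from 6 lists of 120 other genes. All were tested, 0 were higher and 1 was lower, where 1.04% of all tested genes were called higher and 0.569% lower. In 81 (67.5%) the log2 fold change was below 0, against 49.1% of all genes, with a median of -0.18. Impdh2, the rate-limiting enzyme of guanine nucleotide synthesis, fell from 186.6 and 134.1 CPM to 84.4, 86.2, 94.0 and 93.1 CPM (edgeR adjusted p = 0.0258, log2 fold change -0.84, SE 0.15). It was the 1 gene called among 28 of nucleotide synthesis. The call was lost without MC38 replicate 2 (edgeR adjusted p = 0.101) or MC38 replicate 4 (0.0875), with log2 fold changes of -0.82 and -0.85. In those fits the lower calls over all genes fell from 81 to 28 and 31. The log2 fold change of Impdh2 was -0.58 without control replicate 1 and -1.06 without control replicate 2. In each of the other 5 lists edgeR called 0 genes, and those of smallest p are given here. Rpa2, a subunit of the protein that coats single-stranded DNA, was at 87.0 and 85.7 CPM against 56.1, 59.1, 55.5 and 55.2 CPM, with a log2 fold change of -0.61 (edgeR adjusted p = 0.0573). It passed with DESeq2 (adjusted p = 0.00282) and in edgeR with all 7 columns (0.00596). Chtf18, of an alternative clamp loader, was at 13.0 and 10.2 CPM against 2.89 to 7.80 CPM (edgeR adjusted p = 0.182, and 0.0493 with all 7 columns).

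In the helicase activation list, Gins4, a partner of Gins2 in the GINS complex, was at 51.2 and 50.02 CPM against 29.2, 35.2, 26.5 and 36.3 CPM, with a log2 fold change of -0.67 (edgeR adjusted p = 0.112). It passed with DESeq2 (adjusted p = 0.0374) and in edgeR with all 7 columns (0.0177). The estimate of Gins2 was close to 0. The difference between these partners was not tested. Mtbp, a factor of origin firing, was at 3.03 and 5.45 CPM against 5.61 to 11.5 CPM (edgeR adjusted p = 0.374). Of origin recognition and licensing control, Gmnn (geminin), the inhibitor of Cdt1, was at 64.4 and 64.0 CPM against 43.0 to 54.4 CPM (edgeR adjusted p = 0.244). Orc1, the subunit of the recognition complex that varies over the cell cycle, was at 10.3 and 4.87 CPM against 2.69, 2.87, 0 and 0.444 CPM (edgeR adjusted p = 0.334). Of replication-coupled chromatin and repair, Msh6, which recognises mismatched bases, was at 64.1 and 46.6 CPM against 28.4 to 43.2 CPM (edgeR adjusted p = 0.219).

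The E2F, RB and CDK2 control list was the only one of the 6 with a median above 0 (0.13). Of its 18 genes, 12 had a log2 fold change above 0, and edgeR called 0. Cdk6, the partner of the D cyclins, was at 321.6 and 354.1 CPM in control and at 414.9, 422.2, 436.0 and 444.1 CPM in MC38, above both controls in every library (log2 fold change 0.35, SE 0.11, edgeR adjusted p = 0.144). It was called higher by DESeq2 (adjusted p = 0.0179) and by edgeR with all 7 columns (adjusted p = 0.021). Ccna2, cyclin A2 of S phase and G2, was at 46.6 and 66.0 CPM against 28.6 to 44.2 CPM, with a log2 fold change of -0.63 (edgeR adjusted p = 0.188).

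Beside these, genes of G2 and mitosis had lower estimates. Of 28 in a list of that phase, 4 were called lower and 0 higher, where 0.569% of all tested genes were called lower and 1.04% higher. The median log2 fold change was -0.55, against -0.22 for the G1/S and replication genes. Top2a, a topoisomerase already active in S phase, fell from 138.9 ± 3.27 to 90.5 ± 3.27 CPM (edgeR adjusted p = 0.0347). Ccnb1, Ccnb2 and Birc5, regulators of mitosis, fell as well, Ccnb1 from 40.9 ± 1.98 to 16.5 ± 3.31 CPM (edgeR adjusted p = 0.0269; SD, n = 2 and 4). Leaving out MC38 replicates 1 to 4 in turn gave 5, 1, 4 and 2 lower calls. Over all genes tested in those fits, 183, 28, 101 and 31 were called lower, in the same order. Leaving out either control leaves the other alone, so calls from those fits cannot show dependence on a library. The log2 fold change of Ccnb1 was -1.31, and -1.26 without control replicate 1 and -1.36 without control replicate 2. In that order it was -1.0476, -1.0037 and -1.0878 for Ccnb2, -0.78, -0.76 and -0.79 for Birc5, and -0.62, -0.64 and -0.59 for Top2a. The difference between the lists was not tested.

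**Figure D5:**
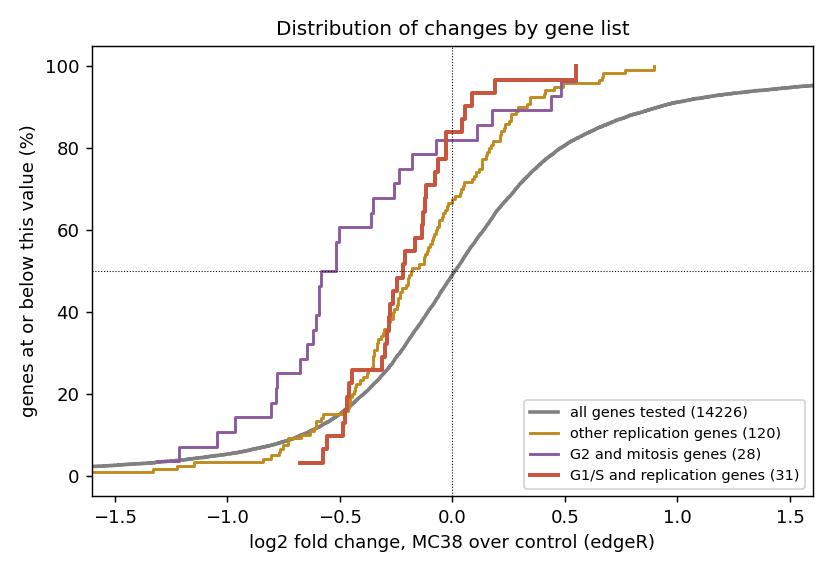
Cumulative share of genes by log2 fold change of MC38 over control, for the 31 G1/S and replication genes, 120 other replication genes, 28 G2 and mitosis genes and all 14226 tested genes. The curves cross 50% at medians of -0.22, -0.18, -0.55 and 0.01.

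Markers of other cells moved between the same libraries. Beside the calls given here, 1.04% of all tested genes were called higher and 0.569% lower. The 10 neutrophil markers summed to 31060 and 31740 CPM in control and to 53820 to 61790 CPM in MC38, with 6 called higher and 1 lower. The 10 erythroid markers summed to 475.5 and 567.2 CPM in control and to 385.9 to 443.3 CPM in MC38, with 0 called. The 10 B cell markers summed to 958.3 and 1063 CPM against 2202 to 2789 CPM (1 called higher). The 8 macrophage markers summed to 47.7 and 49.4 against 76.4 to 85.4 CPM (1 higher, with Marco at 0 in every library). The 8 dendritic cell markers summed to 228.1 and 276.5 against 321.9 to 333.5 CPM (2 higher). Flt3, also in the stem and progenitor list, gave a large part of the dendritic sum, at 119.4 and 104.8 CPM against 121.7 to 137.3 CPM. The 10 T and NK cell markers overlapped, at 424.0 and 494.2 CPM against 415.7 to 458.8 CPM. The part of these cells in the levels of the replication genes was not tested.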

How the data were processed

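The authors deposited read counts per Ensembl gene. The tools named in the submitters' processing notes are HTSeq 0.10.0, STAR 2.6.1 and Trim Galore 0.5.0, with mm10 as the build; the sources used here give neither annotation release nor strand setting. Per the labels' protocols, polyadenylated RNA was amplified with 12 PCR cycles, and no molecular identifiers are named. Without a stated strand, reads of 6 members (Mcm7, Cdc45, Gins2, Rfc2, Fen1 and Ccne2) cannot be told from antisense genes that share exon bases, and Pcna has named pseudogenes. GENCODE mouse release 21 (GRCm38) gave names and lengths for 27797 gene IDs.

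Control replicates 1 and 2 and MC38 replicates 1 to 4 were fitted in edgeR 4.0.16 (R 4.3.3) with TMM, filterByExpr and the robust quasi-likelihood test, which kept 14226 genes and all 31 members. The script was tested on simulated counts for 2 and 4 libraries. It recovered 63 of 100 genes changed by a log2 fold change of 1, up or down. At a change of 0.5 it recovered 6 of 100, so most changes of that size go uncalled. False calls numbered 6. The changed genes were drawn above a mean level that Mcm10, Cdc45, Ccne1, Ccne2 and Clspn did not reach. The simulated spread depended on level alone, so the recovery does not describe these 5 members. limma 3.58.1 and DESeq2 1.42.0 served as alternatives, beside other scalings, no filter, all 7 columns, no immunoglobulin genes, a replicate block and leaving out each library. Members and lists were chosen with earlier results of these data known. All members were named; of each other list, the genes past the threshold were named, otherwise the 2 of smallest p, of which 1 is not reported here. Tests were two-sided.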

Additional observations from a re-analysis of the deposited data

Results flagged for a closer look

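In 1 of the 54 sets of 4 MC38 values examined (members, named genes and role sums), a library lay far from the rest. Gins2 was at 122.9 CPM in MC38 replicate 1 and at 111.0 to 113.0 CPM in the other MC38 libraries, a gap of 0.831 of the whole range. That is just past the 95% critical value of Dixon's test for 4 values, which chance passes in about 1 in 20 sets.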

How the results depend on the processing

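No member was called higher in any of the 15 alternatives, and the members' median log2 fold change stayed below 0. It was -0.22 as reported, -0.18 with library totals only, -0.25 with the replicate block and -0.24 to -0.19 when single libraries were left out. Members called lower numbered 1 with no filter (Mcm6), 2 with DESeq2 and 2 with all 7 columns (Mcm6 and Dut), and 0 to 1 when single libraries were left out (Mcm6 without MC38 replicate 1). The replicate block gave 1 member lower (Rrm1, edgeR adjusted p = 0.0494), 269 genes higher and 190 lower, and 1 other replication gene higher. In that fit MC38 replicates 3 and 4 have no control of the same number. Its estimates, the median above among them, therefore rest on replicates 1 and 2 of each group. The deviations of same-numbered libraries from their group means had correlations of 0.06 and -0.02. With 2 controls, these deviations mirror each other, so the values cannot tell whether same-numbered libraries were handled together. Among all genes, 148 were higher and 81 lower as reported. The counts were 302 and 202 with no filter, 626 and 396 with DESeq2, 791 and 663 with all 7 columns, 95 and 36 without immunoglobulin genes, and 90 higher with limma-voom. Leaving out single libraries gave 44 to 259 higher (44 without control replicate 1, 259 without MC38 replicate 1) and 16 to 183 lower. Of the other replication genes, 1 was higher with DESeq2 and 1 with all 7 columns, and lower were 2 with no filter, 4 with DESeq2, 7 with all 7 columns and 0 to 1 when single libraries were left out. Of the G2 and mitosis genes, 7 were lower with DESeq2, 9 with all 7 columns (1 higher) and 0 to 5 when single libraries were left out, with 1 without MC38 replicate 2 and 2 without MC38 replicate 4. All 7 columns count the third control as independent. The cause of these differences was not tested.

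Of 465 member values under alternatives, 25 changed sign, none of them called. With library totals only, the log2 fold change of Cdc6 was 0.0113 and that of Slbp 0.0083, and with limma-voom that of Ccne1 was 0.0568. With the replicate block, which in effect compares only replicates 1 and 2 of each group, Pola1 was at 0.06, Prim1 at -0.24 and E2f1 at 0.0123. Leaving out single libraries gave -0.34 to 0.29 for Mcm4, -0.29 to 0.23 for Cdc6, -0.29 to 0.0681 for Mcm10, -0.40 to 0.0794 for Rrm2, -0.33 to 0.13 for Pola1, -0.0252 to 0.21 for Prim1, -0.21 to 0.0255 for Pcna, -0.41 to 0.0111 for Rfc2, -0.78 to 0.94 for Ccne1, -0.19 to 0.16 for Slbp and -0.0929 to 0.20 for Hells. The cause was not tested. With 2 controls, differences of the size of these sign changes could not be resolved. Intervals cover the spread between libraries, and PCR copies were counted as reads.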
